A study of Mus musculus with 4 samples.

Results

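Fibroblasts of the mouse common bile duct that carried transcripts of Dpt, Sfrp1 or Dpep1 and none of Pi16 were described in 4 droplet libraries, each made from whole dissected ducts. A cell was included when it had at least 500 genes, at most 25% mitochondrial UMIs (unique molecular identifiers, each counting 1 captured transcript), at most 3 UMIs of the epithelial gene Epcam, none of Ptprc or Pecam1, and at most 1 of the mesothelial genes Msln, Upk3b and Lrrn4. It also needed at least 3 of the 5 matrix genes Col1a1, Col1a2, Col3a1, Dcn and Lum, at least 1 UMI of Dpt, Sfrp1 or Dpep1, and no UMI of Pi16. This rule chose 284 of 19246 kept cells (1.48%), of which 127 were in the single gain-of-function (GOF) library and 27, 36 and 94 were in wild-type libraries 1, 2 and 3. The GOF genotype is labelled Prom1_BcatGOF, and the submitters describe it as a mosaic activation of Ctnnb1, the gene of beta-catenin. The sources used here do not describe the driver, the allele or the cells in which it was active. They also do not give strain, age, sex or the number of animals per library. All 4 libraries are labelled as untreated, and the wild-type ducts carry no stated allele. Whether the 3 wild-type libraries stem from different animals is not stated, and the p-values below therefore measure only the spread between these libraries, which may be technical.

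Fibroblasts build and remodel the collagen matrix of hollow organs, and they also signal to neighbouring epithelium, vessels and leukocytes. In many mouse tissues, Pi16-positive fibroblasts lie in the adventitia and around vessels and are regarded as a progenitor-like reservoir, while related cells without Pi16 are more specialised. Dpt encodes dermatopontin, which binds collagen and decorin. Sfrp1 encodes a secreted antagonist of Wnt ligands, and Dpep1 a membrane dipeptidase that also cleaves leukotrienes. Beta-catenin carries the canonical Wnt signal to the nucleus, where it switches on feedback genes such as Axin2 and Notum.

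The 4 libraries held 22968 barcodes with a median of 7038.5 UMIs per barcode in the GOF library and of 1933 to 3690 in the wild-type libraries. Mitochondrial UMIs made up 2.99% in the GOF library and 10.1 to 14.8% in the wild-type libraries. The GOF library was made with another version of the counting software and another gene reference than the wild-type libraries, as their headers show, so software version, depth and genotype cannot be told apart in any comparison of GOF with wild type. Each pair of libraries shared 5 to 19 barcode sequences. The GOF library held 3339 kept cells with the female transcript Xist and no Y-linked transcript and 3676 with the reverse, and no wild-type fibroblast chosen here carried Xist.

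The fibroblasts chosen by the rule were a small and uneven share of each library. They made up 1.26% of kept cells in the GOF library (95% exact Clopper-Pearson interval 1.05 to 1.49, counting error only). In wild-type libraries 1, 2 and 3 the share was 0.592% (0.390 to 0.860), 1.45% (1.02 to 2.00) and 4.47% (3.63 to 5.44). The GOF share lay inside the range of the wild-type shares, and 1 library against 3 cannot reach p = 0.05 in an exact permutation test, so no test is given. The rule reads absences, which depend on depth, and wild-type library 3 was the shallowest. Kept cells with at least 2000 UMIs were thinned to 2000 before applying the rule, and shallower cells were left out. The GOF share was then 1.48% and the wild-type shares 0.604%, 0.748% and 1.13%. In wild-type library 3 this chose 14 of 1240 cells, against 94 of 2103 before. The median fibroblast of that library had 1544 UMIs, so most of the 94 were left out as shallow before any thinning. In the GOF library 126 of 8502 cells were chosen, against 127 of 10101 before. The shallow fibroblasts left out of each library are counted below with the detection shares. A cell that lost all its Pi16 UMIs in the thinning counted as Pi16-negative. Just outside the rule, 52, 9, 11 and 19 cells (GOF, then wild-type libraries 1 to 3) had a single UMI of Pi16. Just inside it, 23, 1, 7 and 4 cells had 1 to 3 UMIs of Epcam.

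**Figure D1:**
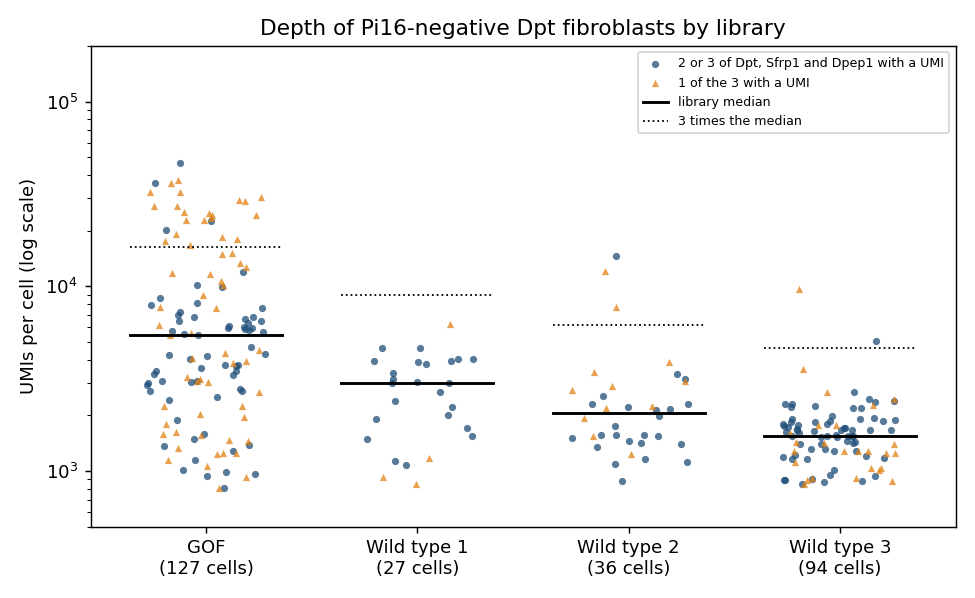
Total UMIs of each Pi16-negative Dpt fibroblast by library (log axis), with 1 point per cell: circles have 2 or 3 of Dpt, Sfrp1 and Dpep1, triangles 1, solid lines are library medians and dotted lines 3 times the median. The GOF cells reach 46470 UMIs, while no wild-type cell exceeds 14628.

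The label markers set these cells apart from epithelial cells, with lower levels in the GOF library, and Pi16-positive fibroblasts carried the markers too. Levels are given as UMIs per 1000000 UMIs of the class in that library (CPM) in the order GOF, then wild-type libraries 1, 2 and 3. Dpt, a gene of the rule, stood at 415, 1620, 1414 and 1686 CPM. Sfrp1 stood at 182, 1475, 752 and 982 CPM, and Dpep1 at 118, 1436, 277 and 774 CPM. The GOF value was the lowest for each of the 3 genes, and these values are a description because the rule used them. Inmt, a methyltransferase of small amines, and Cygb, the oxygen-binding protein cytoglobin, are markers that the rule did not read. Neither gene exceeded 3.79 CPM in epithelial cells of any library. Cells that passed the same rule but carried Pi16 had Inmt at 542, 777, 709 and 1087 CPM and Cygb at 1080, 816, 709 and 838 CPM. Cygb did not differ between these 2 classes past the threshold (log2 difference -0.30, edgeR adjusted p = 0.836). In the Pi16-negative cells Inmt stood at 258, 948, 771 and 2007 CPM and Cygb at 341, 764, 742 and 1108 CPM. Both GOF values lay below every wild-type value, and neither difference passed edgeR's quasi-likelihood test over all genes (log2 fold change -2.46 with adjusted p = 0.104 for Inmt, and -1.53 with adjusted p = 0.144 for Cygb, Benjamini-Hochberg).

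Detection of both markers was also read at 1 depth. With each cell thinned to 2000 UMIs, Inmt was found in 41 of 100 GOF fibroblasts (41.0%) and in 12 of 17 (70.6%), 8 of 18 (44.4%) and 7 of 16 (43.8%) wild-type fibroblasts. Cygb was found in 54.0% of the GOF cells and in 58.8%, 55.6% and 43.8% of the wild-type cells. In epithelial cells at the same depth, Inmt was found in 0.104 to 0.753% and Cygb in 0.174 to 0.624%, and every fibroblast share lay above that background. The thinning left out 27, 10, 18 and 78 shallower fibroblasts. Without thinning, Inmt was found in 48.8%, 77.8%, 66.7% and 78.7% and Cygb in 68.5%, 70.4%, 58.3% and 62.8%.

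**Figure D2:**
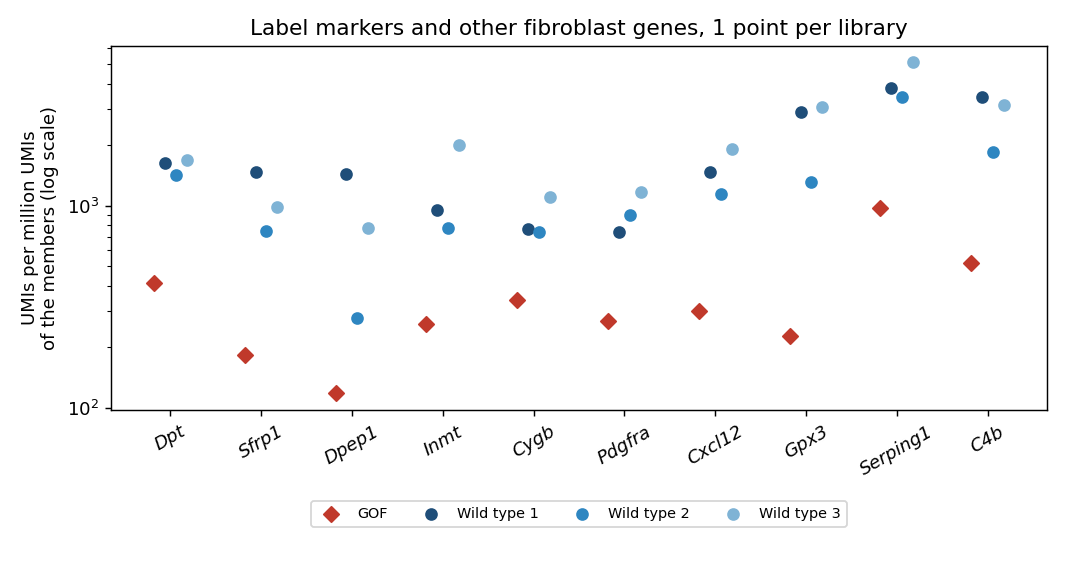
Level in CPM (log axis) of the 5 label markers and 5 further fibroblast genes in the Pi16-negative Dpt fibroblasts, with 1 point per library. The GOF library (diamond) lies below all 3 wild-type libraries for each gene plotted. The 5 further genes were picked by hand, so this is no count over all genes. Cells with more than 3 times the median UMIs held 58.4% of the GOF UMIs.

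The fibroblasts of wild-type ducts were rich in matrix, iron-storage, complement and lipid-carrier transcripts. Among their 10 most abundant genes apart from mitochondrial and ribosomal genes were Dcn, the collagen-binding proteoglycan decorin (16194 ± 1370 CPM, SD, n = 3 libraries), and Gsn, the actin-severing protein gelsolin (9741 ± 6483 CPM). C3, the central complement component, stood at 6418 ± 794 CPM, and Serping1, the inhibitor of the first complement complex, at 4137 ± 868 CPM. Apoe, a lipid carrier, stood at 5146 ± 522 CPM, Col3a1 at 4276 ± 2681 CPM, and Igfbp7, which binds insulin-like growth factors, at 4002 ± 818 CPM. Malat1, Fth1 and S100a6 completed the 10. Pdgfra, a receptor that marks fibroblasts in most organs, stood at 738, 900 and 1164 CPM.

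The GOF fibroblasts were not of 1 kind. Of the 127, 25 had more than 3 times the median UMIs of the GOF fibroblasts, and these 25 cells held 58.4% of all UMIs summed for the GOF library. In wild-type libraries 1, 2 and 3, 0, 3 and 2 cells exceeded 3 times the median of their own library's fibroblasts, and they held 0, 34 and 9.27% of the sums. Inmt, which the rule did not read, stood at 0 CPM in the 25 deep GOF cells and at 951 CPM in the shallower GOF cells that had at least 2 of Dpt, Sfrp1 and Dpep1. Timp1, an inhibitor of metalloproteinases, showed the reverse, with 5399 CPM in the deep cells and 171 CPM in those shallower cells with at least 2 of the 3 genes. Shallower cells with 1 of the 3 genes are not in this contrast or in those that follow. Spp1, the secreted phosphoprotein osteopontin, stood at 3908 and 108 CPM, and Tnc, the matrix protein tenascin C, at 442 and 29.7 CPM. Col1a1 was similar, at 4337 and 3700 CPM. Of the 25 deep cells 20 carried Y-linked transcripts alone and 2 carried Xist alone, against 39 and 55 of all 127.

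Because of this mixture, the comparisons with Pi16-positive cells and of GOF with wild type were also fitted on the cells with at least 2 of the 3 admitting genes and at most 3 times their library's median UMIs (the narrower set), in the GOF and the wild-type libraries alike. The comparison with epithelium and the split by Dpt were not fitted on it. This narrower set was defined after the values were seen. No doublet caller was run, and no cell was removed as a doublet.

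Markers of other cell types moved with the libraries, and their part in the results was not tested. The rule holds Ptprc and Pecam1 at 0 and caps Epcam and the mesothelial genes Msln, Upk3b and Lrrn4, so those markers check nothing. The 8 epithelial markers summed to 2576 CPM in the GOF fibroblasts and 303 to 1068 CPM in the wild-type fibroblasts, with all 8 present in the GOF library and Cldn4 at 0 in every wild-type library; epithelial cells summed to 10658 to 16388 CPM. In the narrower GOF set the same sum was 390 CPM. The 6 smooth-muscle and pericyte markers summed to 1241 CPM in the GOF fibroblasts and 79.1 to 198 CPM in wild type, and to 178 CPM in the narrower GOF set. By depth alone, this sum was 1460 CPM in the 25 deep GOF cells and 935 CPM in the other 102. The epithelial sum was 4074 and 475 CPM in the same cells. Spp1 is 1 of the 8 epithelial markers. By its level given above, it made up most of the epithelial sum of the deep cells and of the GOF library. The 6 mesothelial markers summed to 329 CPM in GOF and to 52.7 to 405 CPM in wild type, and the 8 leukocyte markers to 300 CPM in GOF and to 26.3 to 434 CPM in wild type, with Cd3e, which the rule did not read, at 0 in every library. Endothelial markers summed to at most 39.5 CPM, with Cdh5, also unread by the rule, at 0, and Schwann cell markers to at most 26.3 CPM, with Sox10 at 0. Hemoglobin genes summed to at most 79.0 CPM. The 3 adipocyte markers were found in 1 GOF cell and in no wild-type cell. The 6 pancreatic acinar markers summed to 15902 CPM in wild-type library 3 and to at most 145 CPM elsewhere, and 93.4% of those UMIs in library 3 lay in 3 cells.

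The nearest relatives of these fibroblasts were the cells that passed the same rule but carried Pi16. Compared with them, the Pi16-negative cells had more of the leukocyte-attracting genes Cxcl13, Cxcl1 and Vcam1 and of the secreted chaperone Clu. They had less of the microfibril genes Mfap5 and Fbn1 and of a group of genes that accompany Pi16 elsewhere, among them Cd248, Ackr3 and Ly6c1. The comparison used sums per library of 127, 27, 36 and 94 Pi16-negative cells and of 195, 59, 37 and 43 Pi16-positive cells, with the library as a block. Of 2905 genes tested, 26 were higher (0.895%) and 45 lower (1.55%) in the Pi16-negative cells by edgeR's quasi-likelihood test with a Benjamini-Hochberg adjusted p under 0.05, with all genes of the rule left out. Pi16-positive cells were deeper in every library (medians of 6472, 3739, 2372 and 1962 UMIs against 5451, 2981, 2057.5 and 1544). With the rule applied after thinning, 21 genes were higher and 35 lower. In that fit a cell that lost all its Pi16 UMIs in the draw counted as Pi16-negative, and its unthinned UMIs were summed. The Pi16-positive cells then numbered 143, 52, 22 and 21. Differences between the classes can come out smaller for that reason, here and where this fit is given below.

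**Figure D3:**
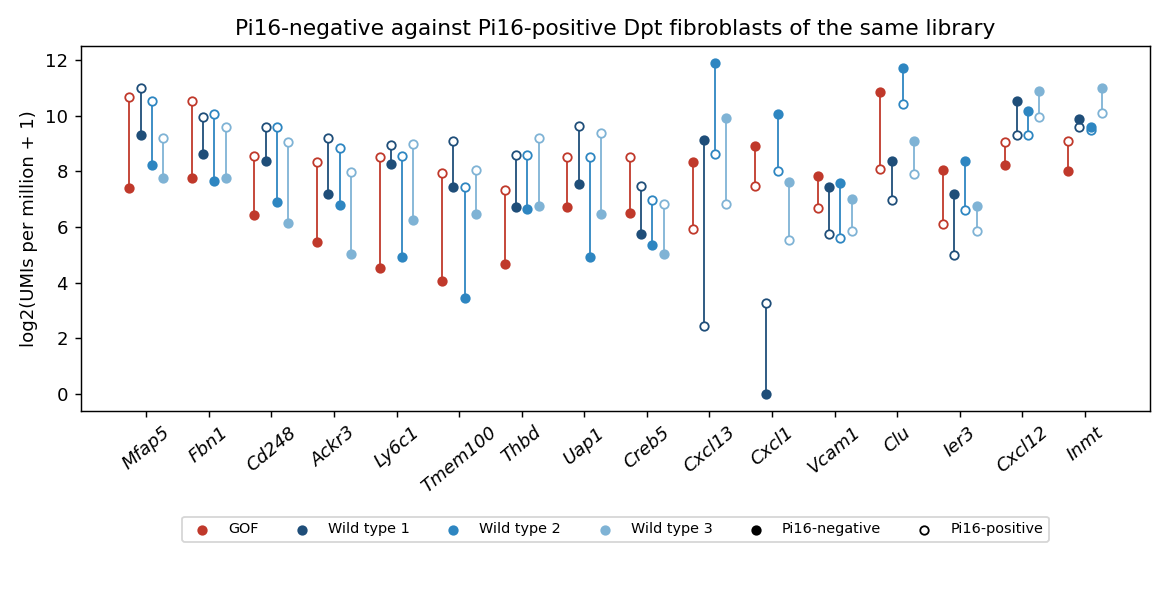
Level, as log2(CPM + 1), of named genes in Pi16-negative and Pi16-positive Dpt fibroblasts, with 1 line per library joining its Pi16-positive (open) and Pi16-negative (filled) sums. Cxcl13, Vcam1 and Clu are higher and Mfap5, Fbn1 and Cd248 lower in the Pi16-negative cells of all 4 libraries.

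Cxcl13, which attracts B cells through Cxcr5, had the largest difference of the chemokine genes called (ENSMUSG00000023078, chromosome 5, 95956951 to 95961068, GRCm38). It stood at 320, 553, 3827 and 963 CPM in Pi16-negative cells and at 59.3, 4.39, 393 and 113 CPM in Pi16-positive cells (GOF, then wild-type libraries 1 to 3). The Pi16-negative value was the higher in 4 of 4 libraries, and the difference was 3.34 ± 0.391 on the log2 scale (SE, edgeR adjusted p = 0.000949), or 10.1-fold. Very few cells carried it: 10, 3, 7 and 6 Pi16-negative cells had any Cxcl13 UMI, and the top 3 cells of each library held 96.4 to 100.0% of its UMIs. In the wild-type libraries alone the difference was 3.75 (edgeR adjusted p = 0.000645), and in the narrower set 2.63 (adjusted p = 8.61e-06).

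Cxcl1, which attracts neutrophils, stood at 474, 0, 1058 and 195 CPM in Pi16-negative cells and at 178, 8.77, 259 and 45.3 CPM in Pi16-positive cells. It was higher in 3 of 4 libraries, with a log2 difference of 1.70 ± 0.314 (SE, edgeR adjusted p = 0.015), but it did not pass with the rule applied after thinning (0.66, adjusted p = 0.579). Vcam1, an adhesion molecule for leukocytes, stood at 227, 171, 188 and 126 CPM against 103, 52.6, 47.9 and 56.6 CPM. Its groups did not overlap, and the log2 difference was 1.40 ± 0.259 (edgeR adjusted p = 0.015), falling short of the threshold in the narrower set (0.77, adjusted p = 0.248) and with the rule applied after thinning (0.91, adjusted p = 0.12). Cxcl12, the ligand of Cxcr4 that retains leukocytes and progenitors, stood at 301, 1475, 1147 and 1907 CPM against 529, 627, 623 and 974 CPM. It was lower in the Pi16-negative cells of the GOF library and higher in those of every wild-type library. Over all 4 libraries it did not pass (0.61, edgeR adjusted p = 0.459), while in the wild-type libraries alone it was higher (1.13, adjusted p = 0.00816), as in the narrower set of all 4 (0.98, adjusted p = 5.72e-05). Of 12 chemokine and cytokine genes tested, 3 were higher and 0 lower, with a median log2 difference of 0.80 against 0.02 over all 2905 genes. In the wild-type libraries alone 4 of 9 were higher and 0 lower, where 23 of all 1773 genes were higher. In the narrower set 2 of 7 were higher and 1 lower, where 50 of all 1969 genes were higher and 59 lower.

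The promoters of the 2 chemokine genes that were higher are shown because both genes are known targets of NF-kB, and both windows hold GGGA followed by any 4 bases and CC, a loose form of the NF-kB consensus searched on both strands. The windows run from 250 bases before to 50 after the start in the RefSeq annotation of GRCm38.p6, 5′ to 3′ on the plus strand, with matches on either strand in capitals: chr5:90890995-90891294 for Cxcl1 and chr5:95956689-95956988 for Cxcl13.
Cxcl1: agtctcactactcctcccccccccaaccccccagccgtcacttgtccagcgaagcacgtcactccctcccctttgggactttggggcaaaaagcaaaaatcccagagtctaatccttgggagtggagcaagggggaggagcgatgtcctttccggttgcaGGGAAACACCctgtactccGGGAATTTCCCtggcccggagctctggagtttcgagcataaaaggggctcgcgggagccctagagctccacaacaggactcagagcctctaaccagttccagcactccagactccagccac
Cxcl13: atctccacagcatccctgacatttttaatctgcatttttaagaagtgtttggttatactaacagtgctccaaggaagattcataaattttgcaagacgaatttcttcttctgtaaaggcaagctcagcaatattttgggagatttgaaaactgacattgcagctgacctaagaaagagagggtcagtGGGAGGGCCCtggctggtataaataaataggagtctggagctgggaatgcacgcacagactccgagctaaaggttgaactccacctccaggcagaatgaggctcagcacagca
The Cxcl1 window held 3 matches, 2 of which overlap on opposite strands and share 1 run of capitals, and the Cxcl13 window held 1. This motif is common: 5528 of 27025 promoters of the same length (20.5%) hold it, and so did 5 of the 17 promoters found for genes higher in the Pi16-negative cells (29.4%). These genes and this motif were chosen after the values were seen, and a match describes letters, not a bound site.

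Among the other genes higher in Pi16-negative cells, Clu (clusterin) stood at 1855, 329, 3342 and 541 CPM against 269, 123, 1361 and 238 CPM. Its log2 difference of 1.79 ± 0.273 (SE, edgeR adjusted p = 0.00483) was 0.53 in the narrower set (adjusted p = 0.131) and 0.95 with the rule applied after thinning (adjusted p = 0.0844). In wild-type library 2, 3 cells held 75.7% of the Pi16-negative Clu UMIs. Ier3, an immediate-early survival gene, was higher by 1.85 (adjusted p = 0.00325) and remained past the threshold in wild type alone (1.79, adjusted p = 0.0201). Gatm, which makes the creatine precursor guanidinoacetate, had the largest difference of those named (3.63 ± 0.648, adjusted p = 0.0126), at 191, 92.2, 59.3 and 44.0 CPM against 8.68, 0, 47.9 and 11.3 CPM. The Pi16-negative levels of Gatm rested on 218 UMIs in GOF and 7, 6 and 7 in wild type, and those of wild-type library 1 lay in 1 cell. Rasl11a, a small GTPase-like protein (2.04, adjusted p = 0.0126, and 1.69 with adjusted p = 0.158 in wild type alone), was higher in all 4 libraries, as were Wt1, a transcription factor of mesothelium and its descendants (1.61, adjusted p = 0.027), and Atxn1 (1.53, adjusted p = 0.0441). In wild-type Pi16-negative cells Wt1 had 2, 11 and 8 UMIs and Atxn1 4, 3 and 6. Gatm, Wt1 and Atxn1 had too few UMIs to be tested in wild type alone, in the narrower set or with the rule applied after thinning. The iron and hemoglobin carriers Trf (1.33, adjusted p = 0.021) and Hp (1.38, adjusted p = 0.0493) were also higher, but in the narrower set neither passed (0.36 with adjusted p = 0.52, and 0.04 with adjusted p = 0.976). In wild-type libraries 1, 2 and 3, 3 cells held 87.5, 79.1 and 69.1% of the Pi16-negative Trf UMIs. Like Cxcl12, Apoe (0.72, adjusted p = 0.0201) and Igfbp3, a carrier of insulin-like growth factors (1.22, adjusted p = 0.0212), were higher in wild type alone and did not pass over all 4 libraries. Inmt did not pass over the 4 libraries (0.09, adjusted p = 0.975), and in the narrower set it was higher in the Pi16-negative cells (0.78, adjusted p = 0.00135).

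The microfibril genes Mfap5 and Fbn1 were lower in Pi16-negative cells. Mfap5, a microfibril protein (chromosome 6, 122505845 to 122529290, GRCm38), stood at 169, 632, 297 and 214 CPM against 1633, 2049, 1486 and 578 CPM. Fbn1, the fibrillin of elastic microfibrils, stood at 218, 395, 198 and 214 CPM against 1465, 992, 1073 and 770 CPM. For both genes every Pi16-negative value lay below the Pi16-positive value of its library, and the log2 differences were -2.19 ± 0.304 for Mfap5 (SE, edgeR adjusted p = 0.0029) and -2.08 ± 0.268 for Fbn1 (adjusted p = 0.00171). Mfap5 and Fbn1 were also lower in wild type alone (-1.73 and -1.74) and in the narrower set (-1.71 and -1.60). They were the 2 genes called among 25 fibrillar matrix genes tested, of which 0 were higher, with a median log2 difference of -0.46. In the narrower set 2 of 24 were higher and 4 lower, where 50 of all 1969 genes were higher and 59 lower.

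Of 16 genes listed as accompanying Pi16 in universal fibroblasts, 12 were tested, 8 were lower and 0 higher, with a median log2 difference of -1.66 against 0.02 over all genes. This list is related to the rule through Pi16 and is not independent evidence. In wild type alone 5 of 11 were lower, where 21 of all 1773 genes were. In the narrower set 8 of 10 were lower, where 59 of all 1969 genes were. Cd248 (endosialin), a stromal surface glycoprotein, stood at 86.0, 329, 119 and 69.2 CPM against 378, 772, 767 and 532 CPM (-2.13 ± 0.281, edgeR adjusted p = 0.00194). Ackr3, a scavenging receptor for Cxcl12, stood at 43.0, 145, 109 and 31.5 CPM against 318, 579, 450 and 249 CPM (-2.47 ± 0.273, adjusted p = 0.000764). Ly6c1, a surface antigen, stood at 21.9, 303, 29.7 and 75.5 CPM against 361, 496, 374 and 498 CPM (-2.66 ± 0.473, adjusted p = 0.0126). The transcription factor Creb5 was lower as well (-1.89, adjusted p = 0.00325), and fell short in wild type alone (-1.63, adjusted p = 0.0582).

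Further genes lower in Pi16-negative cells of all 4 libraries included Thbd, the anticoagulant receptor thrombomodulin (-2.27, edgeR adjusted p = 0.000764), and Uap1, an enzyme of UDP-N-acetylglucosamine synthesis (-2.31, adjusted p = 0.00118). Tmem100 (-2.63, adjusted p = 0.00849), Pcsk6, a proprotein convertase (-2.71, adjusted p = 0.0193), Irak3, a brake on Toll-like receptor signalling (-2.28, adjusted p = 0.0441), and Sfrp4, a secreted Wnt antagonist (-2.25, adjusted p = 0.027), were lower too. The binding proteins Igfbp5 (-2.23, adjusted p = 0.00138) and Igfbp6 (-1.10, adjusted p = 0.0271) were both lower, though Igfbp5 fell short with the rule applied after thinning (-0.84, adjusted p = 0.321). Krtdap, a secreted peptide known from keratinocytes, stood at 0, 0, 19.8 and 12.6 CPM against 25.3, 189, 211 and 45.3 CPM (-3.98, adjusted p = 0.011). The list of transcription factors, which held neither Wt1 nor Creb5, had 18 genes tested. Of these 18, Klf4 (-1.11, adjusted p = 0.0264) and Ebf2 (-1.99, adjusted p = 0.0109) were lower and 0 were higher. Neither Klf4 nor Ebf2 passed with the rule applied after thinning (-0.85 with adjusted p = 0.0688, and -0.88 with adjusted p = 0.109). The 28 oxidative phosphorylation genes gave 0 calls and a median of 0.07. The number of calls depended on single libraries: 23 were higher and 21 lower without the GOF library, 13 and 14 without wild-type library 2, and 17 and 26 without wild-type library 3.

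The comparison of GOF with wild-type fibroblasts asked what changed in these cells in ducts with mosaic Ctnnb1 activation. Of 3312 genes tested, 118 were higher (3.56%) and 38 lower (1.15%) in the GOF fibroblasts by edgeR's quasi-likelihood test at an adjusted p under 0.05, with 2 residual degrees of freedom. The single GOF library was taken to have the spread seen among the wild-type ones. The direction split was not stable to the tool, since DESeq2 called 66 higher and 93 lower. Leaving out scaling between libraries moved the median log2 difference of all genes from -0.04 to 0.19. Of 13 contractile and myofibroblast genes tested, 6 were higher in the GOF sums, while in the narrower set 2 of 6 were higher. The redox gene Gpx3, the transcription factor Tcf21 and 2 complement-system genes were lower in GOF.

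**Figure D4:**
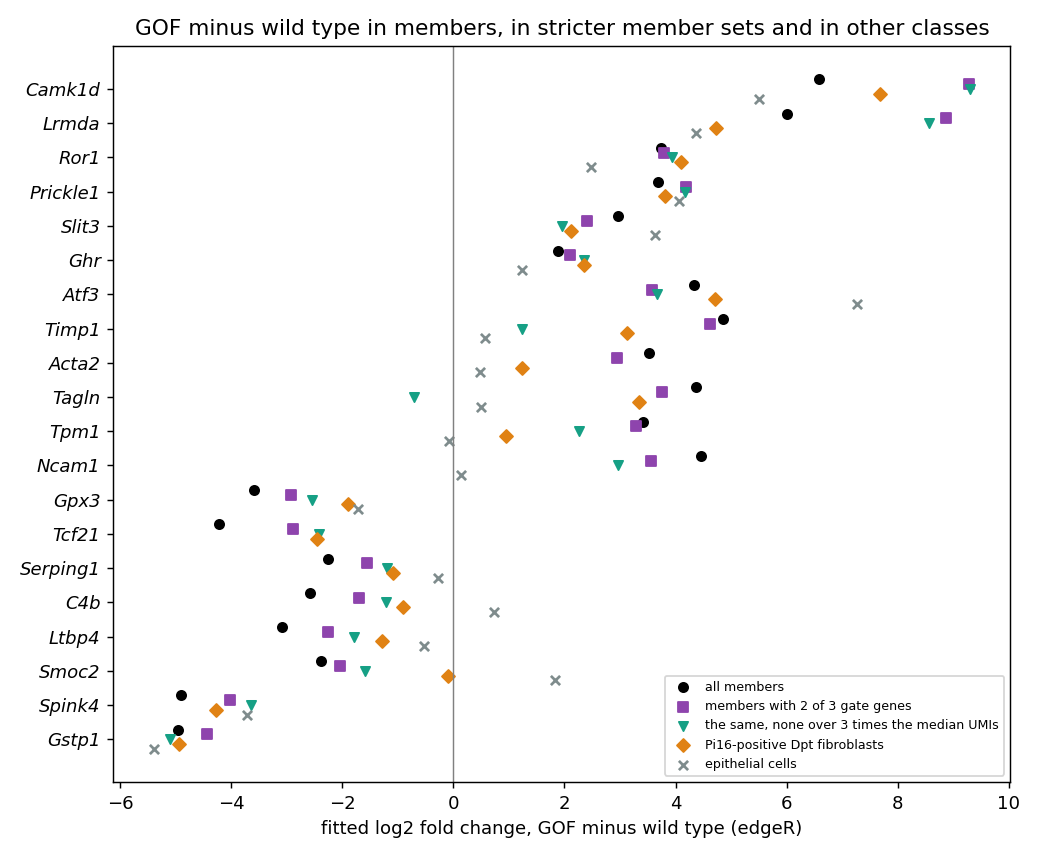
Log2 fold change, GOF minus wild type, of named genes where each could be tested: all of the Pi16-negative Dpt fibroblasts (circles), those with at least 2 of the 3 admitting genes (squares), the narrower set (triangles), Pi16-positive cells (diamonds) and epithelial cells (crosses). Fitted sizes for Camk1d and Lrmda depend on the prior count, and no error bars are drawn. Timp1 falls from 4.85 to 1.23 and Tagln changes sign to -0.70 in the narrower set, while Ror1 stays at 3.94 and Gpx3 at -2.55.

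Gpx3, a secreted glutathione peroxidase (ENSMUSG00000018339, chromosome 11, 54902453 to 54910377, GRCm38), had a GOF level of 227 CPM and wild-type levels of 2898, 1315 and 3083 CPM. The GOF value lay below all wild-type values, and the log2 difference was -3.58 ± 0.701 (SE, edgeR adjusted p = 0.0344). It was -2.55 in the narrower set (adjusted p = 7.2e-06) and -1.89 in Pi16-positive cells (adjusted p = 0.0024). Tcf21, a basic helix-loop-helix factor of visceral mesenchyme (ENSMUSG00000045680, chromosome 10, 22817281 to 22820174), stood at 12.3, 224, 119 and 277 CPM. Its log2 difference was -4.22 ± 0.714 (adjusted p = 0.0187), with -2.42 in the narrower set (adjusted p = 0.00222) and -2.45 in Pi16-positive cells (adjusted p = 5.29e-05). Both genes were lower in GOF in each of these sets of cells, which share their libraries. In GOF cells with Xist alone the log2 differences were -2.93 for Gpx3 and -2.88 for Tcf21, and both fell short of the threshold. In GOF cells with Y-linked transcripts alone they were -4.42 and -5.17.

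Of 14 complement-system genes tested, 2 were lower and 1 higher, with a median log2 difference of -1.22 against -0.04 over all genes, and of -0.12 in the narrower set. C4b, a component of the classical pathway, stood at 521, 3438, 1849 and 3134 CPM (-2.59 ± 0.555, edgeR adjusted p = 0.0414). Serping1 stood at 970, 3833, 3461 and 5116 CPM (-2.27 ± 0.490, adjusted p = 0.0423). Both GOF values lay below the wild-type range. In GOF cells with Xist alone the log2 differences were -1.89 for C4b and -1.65 for Serping1, and both fell short of the threshold. In GOF cells with Y-linked transcripts alone they were -3.71 and -2.67. In the narrower set the differences were -1.22 for C4b (adjusted p = 0.0455) and -1.20 for Serping1 (adjusted p = 0.0444), and with the rule applied after thinning neither passed (adjusted p = 0.0632 and 0.0729). C3 stood at 2669, 7324, 6091 and 5840 CPM and did not pass. The gene that was higher, Cfd, the adipocyte-derived factor D, had 812 UMIs in GOF, and 99.9% of them lay in the 1 cell with adipocyte markers.

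Ltbp4, which tethers latent TGF-beta to the matrix, stood at 97.5, 1080, 653 and 547 CPM (-3.09 ± 0.619, edgeR adjusted p = 0.036) and was -1.80 in the narrower set (adjusted p = 0.0093). Smoc2, a matricellular modulator of growth factors, was lower by a log2 difference of -2.38 (adjusted p = 0.0423), and -1.59 in the narrower set (adjusted p = 0.0628). These were the 2 genes called among 21 of the BMP, hedgehog and TGF-beta pathways, whose median was -0.56. Scara5, a ferritin receptor (-2.66, adjusted p = 0.0437), and Gsta3, a glutathione transferase (-2.38, adjusted p = 0.0442), passed in the whole set and not in the narrower one (adjusted p = 0.258 and 0.612). Cxcl12 (-2.50, adjusted p = 0.0523) and Pdgfra (-1.98, adjusted p = 0.0915) did not pass.

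Timp1 (ENSMUSG00000001131, chromosome X, 20870166 to 20874735, GRCm38) had a GOF level of 3234 CPM and wild-type levels of 79.0, 168 and 56.6 CPM. Its log2 difference of 4.85 ± 0.567 (SE, edgeR adjusted p = 0.00949) was 1.23 in the narrower set (adjusted p = 0.171), 0.46 in GOF cells with Xist alone (adjusted p = 0.698) and 5.40 in GOF cells with Y-linked transcripts alone (adjusted p = 0.00767). Acta2, smooth-muscle actin, stood at 705, 52.7, 69.2 and 44.0 CPM (3.52 ± 0.432, adjusted p = 0.00949). Tagln, the actin-bundling protein transgelin, stood at 1115, 132, 0 and 31.5 CPM (4.36, adjusted p = 0.0423, and 0.453 in DESeq2), with -0.70 in the narrower set (adjusted p = 0.859). Tpm1, a tropomyosin, stood at 717, 65.9, 49.4 and 62.9 CPM (3.42, adjusted p = 0.00949) and passed in the narrower set too (2.26, adjusted p = 0.0029). Tpm2 was higher by 2.96 (adjusted p = 0.0136). Tnc stood at 280 CPM in GOF, in 25 cells, and had no UMI in wild-type cells, which is at least 31.4-fold higher against a floor of 3 counts over the wild-type fibroblasts. The 13 contractile and myofibroblast genes, of which 0 were lower, had a median of 2.96. The 6 tested in the narrower set had a median of 0.89, and 207 of all 2235 genes were higher there. Acta2, Tpm2 and Tnc had too few UMIs to be tested in the narrower set. Smooth-muscle and epithelial marker sums were also highest in these GOF cells, as given above, and their part in these differences was not tested. Acta2 is itself 1 of the 6 smooth-muscle markers and made up 705 of their 1241 CPM in GOF, and Spp1 made up most of the epithelial sum. These sums are therefore no separate measure of other cell types.

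Other genes were higher in GOF in the whole and the narrower set alike. Ror1, a receptor for Wnt5a, stood at 358, 13.2, 19.8 and 31.5 CPM (3.74 ± 0.487, edgeR adjusted p = 0.011), with 3.94 in the narrower set (adjusted p = 1.49e-08), 4.10 in Pi16-positive cells and 2.48 in epithelial cells. Prickle1, of the planar polarity pathway, stood at 263, 13.2, 19.8 and 18.9 CPM (3.68, adjusted p = 0.0117), with 4.17 in the narrower set (adjusted p = 5.14e-07). Slit3, an axon and vessel guidance ligand, stood at 2305, 356, 98.9 and 334 CPM (2.97, adjusted p = 0.0396), with 1.95 in the narrower set (adjusted p = 0.000389). Ghr, the growth hormone receptor, was higher by 1.89 (adjusted p = 0.0392) and by 2.35 in the narrower set (adjusted p = 0.000392), and did not pass in DESeq2 (adjusted p = 0.167). Camk1d, a calcium-dependent kinase, stood at 356, 0, 0 and 6.29 CPM, a ratio to the pooled wild-type cells of 119 with a counting interval of 21.3 to 4730. Lrmda stood at 464, 0, 19.8 and 0 CPM, a ratio of 77.9 (21.4 to 645), and did not pass in DESeq2 (adjusted p = 0.37). Both passed edgeR's test in the narrower set (adjusted p = 6.96e-18 and 5.14e-13). Atf3, a stress-induced factor, stood at 276, 13.2, 0 and 18.9 CPM (4.33, adjusted p = 0.0147), with 3.67 in the narrower set (adjusted p = 1.15e-05).

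The higher genes had long introns, and many were also higher in other cells of the GOF library, in comparisons that use the same 4 libraries. The log2 difference was 5.51 in epithelium and 7.69 in Pi16-positive cells for Camk1d, 4.38 and 4.74 for Lrmda, 4.07 and 3.82 for Prickle1, and 7.27 and 4.72 for Atf3. The median of the summed intron length of a gene's longest transcript was 185 kb for the 118 higher genes, 6.24 kb for the 38 lower genes and 14.4 kb for all genes tested. With genes of at most 5 kb of intron alone, 6 were higher and 0 lower of 1070 tested (210 at an unadjusted p under 0.05), by edgeR. Whether either software version counted intronic reads is not given in the sources used here, and its part in these differences was not tested. Among the named rises, Sntg1 (263 CPM) and Col24a1 (255 CPM) had no wild-type UMI, at least 29.4-fold and 28.6-fold higher, as had Kif26b (155 CPM, at least 17.3-fold). Atp6v0c, a proton-pump subunit with 0.597 kb of intron, was at 263 CPM and without a wild-type UMI (at least 29.5-fold), and so was Timm23 (150 CPM, at least 16.8-fold). Xist, the female transcript, stood at 250 CPM with no wild-type UMI (at least 28-fold), and the mix of sexes differed between the libraries, as given above.

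The named falls included genes that were also lower in GOF epithelium. Gstp1, a glutathione transferase, stood at 12.3, 92.2, 583 and 346 CPM (-4.95, edgeR adjusted p = 0.0442) and at 35.8, 656, 1424 and 1411 CPM in epithelium. Spink4, a secreted protease inhibitor of mucous epithelium, stood at 36.9, 659, 1374 and 919 CPM (-4.89, adjusted p = 0.0147), and in epithelial cells at 1942, 23822, 20585 and 15271 CPM. Ifi202b had no GOF UMI and stood at 119, 158 and 94.4 CPM in wild type, at least 45.2-fold lower. Ptp4a1, a phosphatase, stood at 1.76, 92.2, 119 and 62.9 CPM, a ratio of 0.0203 with a counting interval of 0.00235 to 0.0804. Defa30 had no GOF UMI (at least 40.7-fold lower), and its wild-type UMIs lay in 4 cells. The number of calls was sensitive: no gene passed in edgeR when cells with over 10% mitochondrial UMIs were left out (306 of 1648 at an unadjusted p under 0.05; no other tool was run on those cells). Without wild-type library 1, 2 or 3 the counts were 262 and 194, 354 and 233, and 218 and 145 (higher and lower).

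The targeted pathway was read by comparing the GOF effect in the fibroblasts with that in epithelial cells of the same libraries, through the interaction of cell class and genotype, blocked by library. The GOF effect on 3 feedback genes of beta-catenin and on 6 interferon-response genes was lower in these fibroblasts than in epithelium. In epithelium these genes were higher in GOF, apart from Irf7, which was not called there. The 3 feedback genes had few UMIs in wild-type fibroblasts, where 1 UMI was worth 6.29 to 13.2 CPM. Each of the 3 fell short or changed sign when 1 wild-type library was left out, as given below. Of 14092 genes tested, the GOF effect was higher in fibroblasts for 80 (0.568%) and lower for 133 (0.944%) by edgeR's quasi-likelihood test at an adjusted p under 0.05. Without scaling between libraries these counts were 57 and 182, and the median of all genes moved from 0.15 to -0.13. Without wild-type library 3 they were 45 and 72. Ctnnb1 itself stood at 126, 132, 178 and 132 CPM in the fibroblasts, and a deletion or truncation in its transcript could not be read from counts per gene.

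Axin2, which assembles the beta-catenin destruction complex, stood at 13.2, 0, 39.6 and 37.8 CPM in the fibroblasts and at 111, 2.84, 6.6 and 6.13 CPM in epithelium. The GOF value was the highest in epithelium and lay inside the wild-type range in the fibroblasts. The interaction was -5.18 on the log2 scale (edgeR adjusted p = 9.93e-06), and -4.87 with adjusted p = 0.0554 without wild-type library 3. Nkd1, a negative regulator of Wnt signalling, stood at 32.5, 52.7, 9.89 and 12.6 CPM in the fibroblasts and at 96.5, 0.738, 2.10 and 2.16 CPM in epithelium (-5.04, adjusted p = 0.000309, and 0.151 in DESeq2), with -3.74 and adjusted p = 0.288 without wild-type library 1. Notum, a secreted Wnt deacylase, stood at 6.15, 0, 0 and 37.8 CPM in the fibroblasts and at 31.2, 0.624, 1.00 and 0.721 CPM in epithelium. Its interaction of -6.22 (adjusted p = 0.00147) rested on wild-type library 3 and turned to 4.61 without it. Of 17 beta-catenin feedback and target genes tested in epithelium 12 were higher in GOF and 0 lower, with a median of 4.07, where 11.4% of all genes tested were higher and 4.11% lower. In the interaction 3 of 17 were lower and 0 higher, with a median of -0.48. In the fibroblasts 2 of the 18 listed genes had enough UMIs to be tested, and 1 of them, Prickle1, was higher.

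Ifitm3, a membrane protein that blocks viral entry, stood at 1559, 3267, 3372 and 2813 CPM in the fibroblasts and at 346, 23, 63.6 and 35.5 CPM in epithelium. The interaction was -3.94 (edgeR adjusted p = 5.67e-17), and it passed without each wild-type library in turn. Isg15, a ubiquitin-like protein induced by interferon, stood at 50.9, 92.2, 29.7 and 37.8 CPM in the fibroblasts and at 98.5, 7.80, 7.0 and 5.59 CPM in epithelium (-3.55, adjusted p = 0.000131). Bst2, which tethers virions to the cell surface, stood at 266, 224, 297 and 290 CPM in the fibroblasts and at 84.6, 23.4, 19.4 and 18.6 CPM in epithelium (-1.80, adjusted p = 0.0375, and 0.226 in DESeq2), and fell short without wild-type library 2 or 3 (adjusted p = 0.166 and 0.251). For all 3 genes the GOF value was above the wild-type range in epithelium and within or below it in the fibroblasts. Of 28 interferon-response genes tested in the interaction, 6 were lower and 1 was higher, with a median of -2.76 against 0.15 over all genes, and in epithelium 18 of the 28 were higher in GOF and 2 lower.

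The contractile genes went the other way, with 5 of 18 higher in the interaction, 0 lower, and a median of 1.26. Acta2 (2.99, edgeR adjusted p = 0.000307, with 1.16 and adjusted p = 1 without wild-type library 3), Tpm1 (3.51, adjusted p = 1.88e-07) and Timp1 (4.36, adjusted p = 1.61e-13) were among them, all in the whole set of GOF fibroblasts with its deep cells. C4b (-3.21, adjusted p = 1.5e-10), Serping1 (-2.07, adjusted p = 9.23e-05) and Gpx3 (-1.72, adjusted p = 0.0153) were lower in the interaction, as was the label marker Inmt (-2.06, adjusted p = 0.00951). Acta2, Serping1, Gpx3 and Inmt did not pass in DESeq2 (adjusted p = 1.00, 0.591, 0.406 and 1.00). Without wild-type library 1 Inmt fell short (-1.13, edgeR adjusted p = 0.423), as did Gpx3 without library 3 (-1.66, adjusted p = 0.156). C4b stood at 72.3 CPM in GOF epithelium and 30.1 to 39.6 CPM in wild-type epithelium, where the difference did not pass. The 28 oxidative phosphorylation genes gave 0 calls, with a median of 0.85.

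The fibroblasts were also compared by the gene that admitted them. Cells with Dpt alone were set against cells with Sfrp1 or Dpep1 and no Dpt, in the GOF library (36 and 31 cells) and wild-type library 3 (11 and 18 cells), the 2 libraries with at least 10 cells of each. Of 3824 genes tested, 12 were higher (0.314%) and 23 lower (0.601%) in the Dpt-only cells (edgeR's quasi-likelihood test, blocked by library). With no replicate block 0 genes were called in either direction (12 at an unadjusted p under 0.05), and DESeq2 called 0 higher and 1 lower. Mfap5 was higher in the Dpt-only cells, at 174 against 27.0 CPM in GOF and 221 against 31.6 CPM in wild-type library 3 (2.63, adjusted p = 0.0138), and Spon2, a secreted matrix protein, likewise (2.88, adjusted p = 0.0243). Acta2 was higher, at 1349 against 256 CPM in GOF and 110 against 0 CPM in wild-type library 3 (2.45, adjusted p = 0.000709). The antigen-presentation genes Cd74 and H2-Eb1 were lower: Cd74 stood at 29.9 against 556 CPM in GOF and at 0 against 600 CPM in wild-type library 3 (-4.35, adjusted p = 3.55e-11). Apod, an apolipoprotein of nerve and connective tissue, was lower as well (-4.04, adjusted p = 0.000219). Ctrb1, an acinar protease (-6.52, adjusted p = 9.76e-17), had 685 UMIs in the cells without Dpt of wild-type library 3 and at most 5 in any of the other sums. In wild-type library 3 these sums held few UMIs (Mfap5 had 4 and 1).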

How the data were processed

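UMI counts per gene and cell were used as deposited by the authors, 1 sparse matrix per library, made from 10x 3′ v3 libraries of whole duct. Cell Ranger 7.0.0 wrote the GOF matrix and Cell Ranger 3.0.2 the wild-type matrices, per the file headers, while the submitters' processing notes name Cell Ranger 7.1 and mm10. The headers list 32285 and 31053 genes, and the 30406 shared identifiers were analysed, all of which had a position in GENCODE M21 (GRCm38).

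Counts were summed per library over the chosen fibroblasts and the compared classes, and tested with edgeR 4.0.16 in R 4.3.3 (TMM scaling, filterByExpr, quasi-likelihood test, Benjamini-Hochberg, threshold 0.05). Epithelial cells had at least 4 Epcam UMIs, no Ptprc or Pecam1 and fewer than 3 of the 5 matrix genes. Comparisons within libraries had the library as a block, since both sums come from the same cell suspension. Genes read by the rule were given no test. DESeq2 1.42.0 and limma-voom (limma 3.58.1) served as alternatives. A level in CPM divides by all UMIs of the class without TMM, and 1 UMI was worth 0.878 CPM in the GOF fibroblasts and 6.29 to 13.2 CPM in the wild-type fibroblasts, so low wild-type levels are coarse. The fibroblast sums held 1139025 UMIs in GOF and 75917, 101131 and 158912 in wild type. A gene without a UMI was given a floor of 3 counts over the group. The scripts were tested on simulated counts.

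The members, the 20 gene lists and the 11 marker lists were chosen with earlier results of these data known. Named genes were the 10 largest changes each way among called genes (5 for the interaction and the split by Dpt). They needed a level of 20 CPM in the group with more, and a GOF level beyond the wild-type range or the same direction in every library. Up to 4 called members of each list, and of described lists up to 4 more by abundance, were added. Predicted, mitochondrial and ribosomal genes were not named, and 1 gene that met the rule is not reported here. Genes without UMIs in 1 group are given by their bound.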

Additional observations from a re-analysis of the deposited data

Results flagged for a closer look

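The genes with the largest differences between the GOF effect in the fibroblasts and the GOF effect in epithelium, by the interaction test, all rested on a genotype whose fibroblasts had no UMI, or on a few cells, so the size of each fitted value depends on the prior count and is no bound. The effect was higher in the fibroblasts for Car3, a carbonic anhydrase of muscle and fat (15.01 on the log2 scale, edgeR adjusted p = 0.00145), all of whose 128 GOF UMIs lay in the 1 cell with adipocyte markers. It was also higher for Sprr1a (14.70, adjusted p = 7.72e-06), Slc24a3 (12.92, adjusted p = 0.00799), Rbm47 (11.42, adjusted p = 0.0151) and Desi1 (11.34, adjusted p = 0.0487), none of which had a UMI in wild-type fibroblasts.

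It was lower in the fibroblasts for Grip1 (-13.39, edgeR adjusted p = 0.0367), which had no GOF UMI and at most 1 UMI in each wild-type library. The same held for 4 secreted pancreatic genes: Pla2g1b (-11.93, adjusted p = 5.15e-05), Spink1 (-11.01, adjusted p = 0.042), Gp2 (-10.72, adjusted p = 0.0134) and Rnase1 (-10.58, adjusted p = 3.28e-05). Their fibroblast UMIs came mostly from wild-type library 3, where 3 cells held 93.4% of the acinar marker UMIs, and their part in these values was not tested apart from leaving that library out. Without wild-type library 3, the value for Gp2 turned to 0.62 (adjusted p = 1.0).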

How the results depend on the processing

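Alternatives added after the data were seen are marked "added". For GOF against wild type, the genes higher and lower were 577 and 191 with no filter on low counts, 66 and 93 with DESeq2, 178 and 243 with limma-voom, 297 and 205 with a stricter rule, 0 and 0 with at most 10% mitochondrial UMIs, 259 and 101 without fibroblasts over 3 times the median UMIs, and 6 and 0 when introns of a gene summed to 5 kb or less. They were 88 and 22 with at least 2 of Dpt, Sfrp1 and Dpep1 (added), 207 and 84 in the narrower set (added), 99 and 14 for GOF cells with Xist alone (added), and 194 and 151 for those with Y-linked transcripts alone (added). Leaving out each wild-type library gave 218 to 354 higher and 145 to 233 lower. Tagln turned to -0.70 in the narrower set. For the interaction, DESeq2 gave 9 and 29, and leaving out each wild-type library gave 45 to 74 higher and 72 to 124 lower; with each left out, Gp2 ran from -11.50 to 0.62 and Notum from -6.99 to 4.61, both turning without library 3.

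Against Pi16-positive cells the counts were 229 and 135 with no filter, 13 and 38 with DESeq2, 50 and 59 in the narrower set (added), 23 and 21 in wild type alone, and 13 to 36 higher and 14 to 47 lower with each library left out. Wild type alone is the same fit as leaving out the GOF library, listed under both names. With no replicate block, edgeR called 0 and 0 (109 genes at an unadjusted p under 0.05). For the split by Dpt they were 15 and 37 with no filter, 0 and 1 with DESeq2, and 0 and 0 with no replicate block (12 at an unadjusted p under 0.05). Leaving out a library could not be fitted there. No paired analysis was possible between GOF and wild type because the GOF group has 1 library.

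The share of fibroblasts was 0.921% in GOF with the stricter rule, 0.748% and 1.13% in wild-type libraries 2 and 3 after thinning, and 0.980%, 3.30% and 7.36% in libraries 1 to 3 with at most 10% mitochondrial UMIs. Inmt was found in 28.9% of GOF and 74.1% of wild-type library 3 cells at 1000 UMIs and in 78.7% of the latter unthinned, and Cygb in 68.5% of GOF cells unthinned. Among single named genes, 466 values kept direction and call for GOF against wild type and 113 lost the call. For the interaction these counts were 349 and 115, against Pi16-positive cells 265 and 90, and for the split by Dpt 26 and 24. The causes were not tested. The wild-type sums, of 75917 to 158912 UMIs, limit what can be seen of genes at low levels.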
